A study of Mus musculus with 18 samples.

Results

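Esr1, Pgr, Nr3c1, Prlr and Ghr, the genes of 5 receptors through which steroid and lactogenic hormones reach the mammary epithelium, were followed across sorted cells of mouse mammary gland. They were chosen by name, are 5 of the 52636 genes in each count table, and all 5 passed the filter on low counts. RNA was sequenced from 18 libraries in 6 groups of 3 biological replicates: WT mice and mice with the Esr1 mutation D542G or Y541S, each sorted into a mature luminal gate (ML) and a second gate that the labels call N without defining it. Mice of all 6 groups were 6 months old, bore implanted pellets of the hormones E2 and P4 (an estrogen and a progestogen), and were given giredestrant, an antagonist of the estrogen receptor, by mouth at 30 mg/kg a day for 4 days. The controls therefore carry hormone and antagonist too, and no effect of either was measured. Whether a mutant mouse carried 1 or 2 mutant alleles is not given in the sources used here, nor is it stated that N and ML libraries of equal number share an animal. The title of the study asks whether cells that arise under antagonism of the estrogen receptor are also present, rarely, in WT tissue.

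The 5 receptors are of 2 kinds. Estrogen receptor alpha (Esr1), the progesterone receptor (Pgr) and the glucocorticoid receptor (Nr3c1) are nuclear receptors that bind a steroid and then act as transcription factors, and Pgr is itself a known target gene of the estrogen receptor. The prolactin receptor (Prlr) and the growth hormone receptor (Ghr) sit in the cell membrane and signal through the kinase Jak2 to Stat5, whose targets include the feedback inhibitors Cish and Socs2. In mammary gland, Esr1, Pgr and Prlr are known for high expression in the hormone-sensing luminal cells, Nr3c1 is widely expressed, and prolactin and glucocorticoid act together in milk gene expression.

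The mutations lie next to each other in the part of Esr1 that encodes the ligand-binding domain. The stretch below is the reference (unmutated) sequence of codons 532 to 551 of transcript Esr1-201, which has 599 codons before its stop, from exon 9 of 9 at chr10:5001217-5001276 on the + strand of GRCm38. It is shown because it is the site by which the genotypes differ, and the capitals mark the adjacent codons of the residues that Y541S and D542G change.
Esr1 codons: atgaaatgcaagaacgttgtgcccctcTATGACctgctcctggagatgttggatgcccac
Gene counts do not show which of the alleles a read came from, so the genotype is taken from the labels.

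RefSeq gave upstream windows, each the 250 bases before a transcript start, for 4 of the 5 receptors (8 windows, GRCm38.p6). They were searched on both strands for GGTCANNNTGACC (estrogen response element), its half-site GGTCA, GNACANNNTGTNC (glucocorticoid and progesterone response element), TTCNNNGAA (Stat) and TGTTTAC (forkhead). No receptor window held either estrogen motif or the glucocorticoid motif, which occur in 0.0639%, 35.2% and 0.387% of all 32851 windows of this length; the full estrogen motif contains the half-site. A Stat motif, found in 7.02% of all windows, lay 188 bases before an Esr1 start and 110 bases before a Prlr start. The Prlr window also held a forkhead motif, found in 3.17% of all windows, 215 bases before the start. That window, at chr15:10223656-10223905 on the + strand, lies within the annotated span of Prlr and is shown because it held both motifs, in capitals, forkhead first and Stat second.
Prlr upstream window: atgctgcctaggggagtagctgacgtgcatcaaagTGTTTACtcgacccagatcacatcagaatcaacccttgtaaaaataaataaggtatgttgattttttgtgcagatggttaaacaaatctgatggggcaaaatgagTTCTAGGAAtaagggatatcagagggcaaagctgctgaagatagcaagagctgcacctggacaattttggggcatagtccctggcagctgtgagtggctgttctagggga
A match describes these letters only. Whether a factor binds there was not measured.

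Libraries held 34797778 to 49507144 gene counts. Levels are in CPM, the gene's count over the library total (TMM-scaled) on the usual CPM scale, and a gene is called where the adjusted p of the edgeR quasi-likelihood test is under 0.05. The sorting was checked against lists of marker genes. Summed luminal keratin, adhesion and claudin genes (10 of 10 detected) stood at 16653 to 32477 CPM in the 9 ML libraries and at 2123 to 7198 CPM in the N libraries other than WT N 3, which held 18184 CPM. Summed basal genes (10 of 10) stood at 14739 to 39729 CPM in N other than WT N 3, which held 6139 CPM. In ML they stood at 155 to 450 CPM in 6 libraries, but at 9539 in WT ML 1, 6544 in WT ML 2 and 3095 in Y541S ML 3. The labels name mature luminal cells as the source of the N libraries too, whereas 8 of them had basal sums above luminal sums. Among these 8 the gap was smallest in D542G N, at 14739 to 16579 CPM of basal against 5779 to 7198 CPM of luminal genes. In these sums WT N 3 thus stood apart from its group and near ML. It did not do so in all markers: its luminal progenitor sum was 1401 CPM, below every ML library (4466 to 18542 CPM). The receptors' comparisons that include WT N 3 are given with and without it. In bulk RNA, fewer cells of a type and less RNA per cell cannot be told apart.

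**Figure D1:**
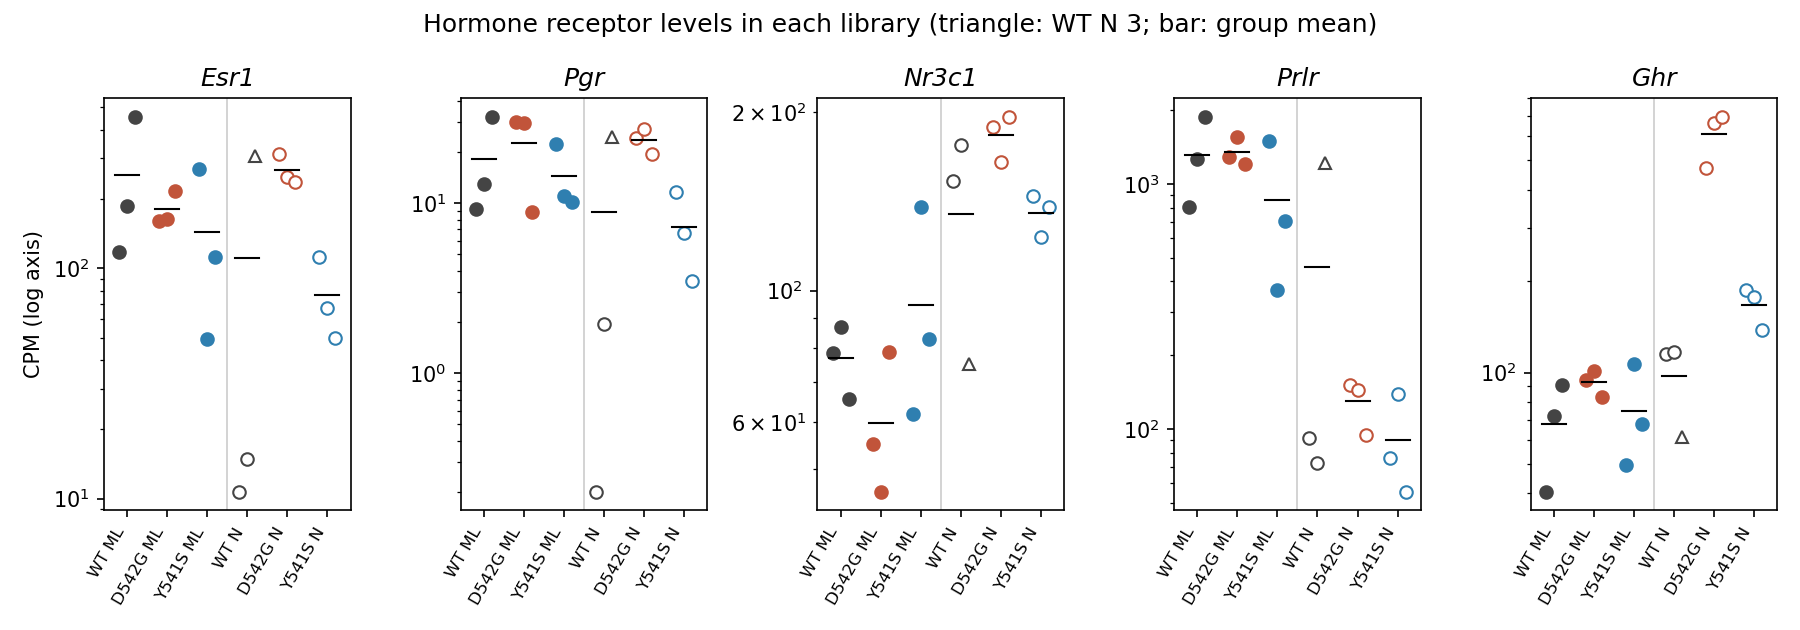
CPM of the 5 receptors (log axis) in each of the 18 libraries, by group; filled points are ML libraries, open points N libraries, the triangle is WT N 3 and bars are group means of 3 libraries. The triangle lies among the ML libraries for all 5 genes, while Ghr in D542G N (471 to 695 CPM) lies above every other library.

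Esr1 (ENSMUSG00000019768, chr10:4611593-5005614, + strand) was expressed in every library, and its N levels lay far apart within WT. ML levels were 118, 187 and 455 CPM in WT, 161, 164 and 216 CPM in D542G, and 271, 49.4 and 112 CPM in Y541S. N levels were 10.7, 14.9 and 307 CPM in WT, 313, 249.97 and 238 CPM in D542G, and 112, 67.5 and 49.9 CPM in Y541S. The highest ML library was thus WT ML 3, the lowest N libraries were WT N 1 and WT N 2, and the D542G N libraries were all above the D542G ML libraries. Over the genotypes N differed from ML by a log2 fold change of −0.51 ± 0.55 (adjusted p = 0.529, edgeR), which was not called. Without WT N 3 it was −1.55 ± 0.34 (adjusted p = 0.00319), a call, and limma-voom with library quality weights gave −1.24 (adjusted p = 0.00464), where WT N 3 had a weight of 0.180.

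Within WT, Esr1 was lower in N by −1.19 ± 0.96 on the log2 scale with all libraries (adjusted p = 0.50, edgeR) and by −4.30 ± 0.74 without WT N 3 (adjusted p = 0.00214). In D542G it was 0.56 ± 0.95 and in Y541S −0.92 ± 0.96, neither of them called. Between genotypes in the N gate, D542G against WT gave 1.27 ± 0.96 (adjusted p = 0.521) and 4.38 ± 0.75 without WT N 3 (adjusted p = 0.00539). The difference of the gate effects of D542G and WT was 1.76 ± 1.35 (adjusted p = 0.691) and 4.87 ± 0.89 without WT N 3 (adjusted p = 0.0263). Whether Esr1 differed between D542G and WT cells of the N gate therefore turned on 1 library. Summed markers of hormone-sensing luminal cells (9 of 9 detected) stood at 551, 663 and 4107 CPM in WT N, 1442 to 1531 CPM across D542G N and 568 to 866 CPM across Y541S N. Of that sum, Foxa1 made up 7.88, 14.7 and 573 CPM in WT N and 652 to 823 CPM in D542G N. The markers did not all move alike. By group mean, WT N 3 included, Foxa1 was higher in D542G N than in WT N. Gata3 (120 against 183 CPM), Cited1, Wnt4, Areg and Tnfsf11 were lower. Summed epidermal genes (9 of 9 detected) stood at 3873, 10016 and 476 CPM in WT N, at 23.5 to 730.3 CPM across D542G N, and at 15.3, 14.99 and 11685 CPM in Y541S N, so the 3 N libraries richest in them included the lowest Esr1 level of WT and of Y541S. The part of either marker group in the Esr1 values was not tested. Without both WT N 3 and Y541S N 3, Esr1 was higher in Y541S N than in WT N by 2.81 ± 0.71 (adjusted p = 0.0264, edgeR), against −0.54 ± 0.95 with all libraries (adjusted p = 0.854).

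Pgr (ENSMUSG00000031870, chr9:8899833-8968611, + strand) had the lowest level of the 5 per length and followed Esr1 in the N gate. ML levels were 9.23, 12.99 and 32.1 CPM in WT, 29.8, 29.4 and 8.81 CPM in D542G, and 22.3, 10.98 and 10.1 CPM in Y541S. N levels were 0.201, 1.94 and 24.4 CPM in WT, 24.2, 27.1 and 19.4 CPM in D542G, and 11.6, 6.64 and 3.50 CPM in Y541S. WT N 1 and WT N 2 were again the lowest, WT N 3 was at the level of D542G N, and the N and ML ranges overlapped in D542G. N against ML over the genotypes was −0.66 ± 0.60 (adjusted p = 0.449, edgeR), and −1.67 ± 0.44 without WT N 3 (adjusted p = 0.0104). Pgr was lower in N in 8 of 9 pairs of equal number, and fitted as pairs the difference was −1.18 (adjusted p = 0.0766, edgeR). Within WT the difference was −1.04 ± 1.04 (adjusted p = 0.603), and −4.08 ± 0.96 without WT N 3 (adjusted p = 0.0112). D542G N against WT N was 1.42 ± 1.05 (adjusted p = 0.509), and 4.46 ± 0.97 without WT N 3 (adjusted p = 0.0161).

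**Figure D2:**
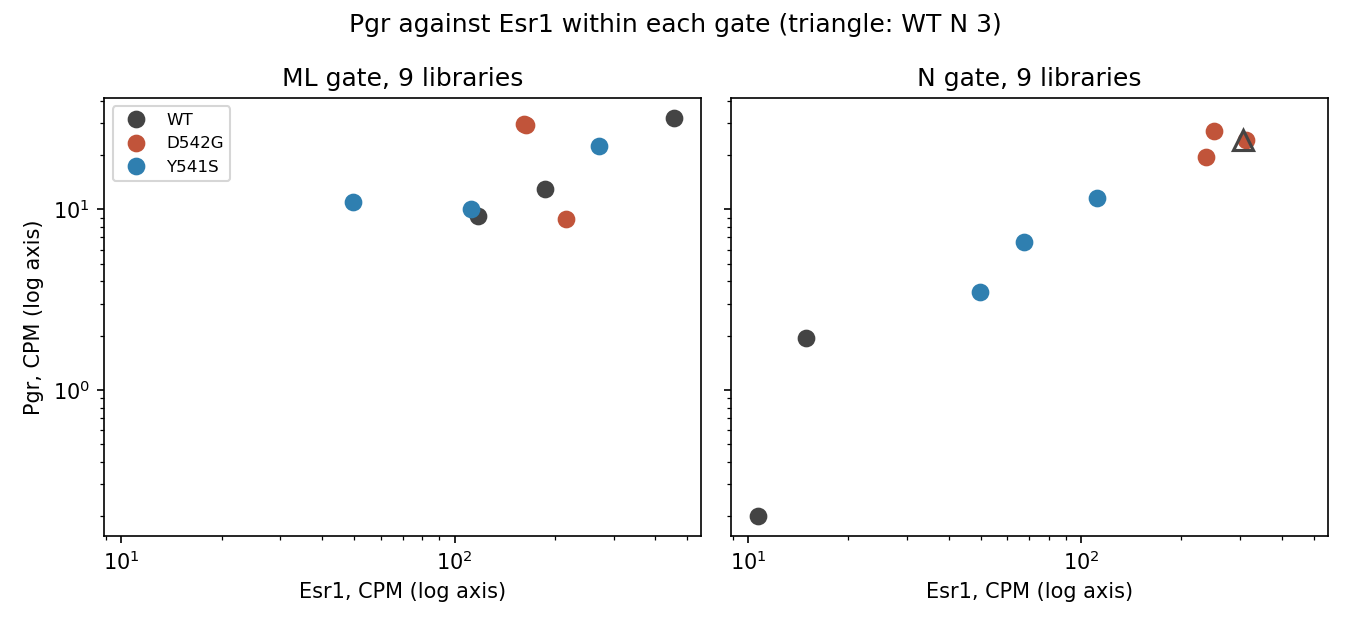
Pgr against Esr1 in CPM (log axes) in the 9 ML libraries (left) and the 9 N libraries (right), coloured by genotype, with WT N 3 as an open triangle. In N the libraries run from WT N 1 (10.7 and 0.201 CPM) up to D542G N along 1 line, while in ML they scatter.

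Across the 9 N libraries, Esr1 and Pgr correlated at Pearson's r = 0.984 (exact permutation test, two-sided, p = 2.76e-05, adjusted p = 0.000551 over the 20 pairs of receptors computed in the gates) and Spearman's rho = 0.933 (adjusted p = 0.0150), on log2(CPM + 1). It was 0.980 without the 2 libraries farthest from the median of Esr1, and 0.985 without WT N 3 and Y541S N 3. Genotypes sit at different places on that line. About the genotype means, a calculation chosen after these values were seen, r was 0.970 (exact test over the 216 permutations within genotypes, two-sided, p = 0.0139), and 0.881 without WT N 3 (72 permutations, exact p = 0.0694). In the 9 ML libraries r was 0.547 (exact permutation test, adjusted p = 0.254). The ratio of Pgr to Esr1 per kb of exon was 0.123 to 0.173 in D542G N and 0.112 to 0.165 in Y541S N. In WT N it was 0.0300, 0.208 and 0.127, the first of them on a Pgr level close to 0.

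Among ML libraries, Esr1 and Prlr rose and fell together, at r = 0.928 (exact permutation test, adjusted p = 0.00284) and rho = 0.80 (adjusted p = 0.0713), and r was 0.804 without the 2 libraries farthest from the median of Esr1. Nr3c1 ran against Prlr there, at r = −0.831 (exact permutation test, adjusted p = 0.0467) and rho = −0.77 (adjusted p = 0.0713); without the 2 farthest libraries r was −0.559. Y541S ML 2 was lowest in both Esr1 and Prlr and highest in Nr3c1. That library also held the lowest hormone-sensing luminal sum of the ML libraries (1365 CPM) and the highest luminal progenitor sum (18542 CPM, 7 of 8 markers detected, Csn3 at 0 in all libraries), and their part in these relations was not tested.

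Nr3c1 (ENSMUSG00000024431, chromosome 18, − strand) was higher in N than in ML. ML levels were 78.5, 86.6 and 65.5 CPM in WT, 55.1, 45.7 and 78.7 CPM in D542G, and 61.7, 139 and 82.9 CPM in Y541S. N levels were 153, 176 and 75.1 CPM in WT, 189, 165 and 197 CPM in D542G, and 144, 123 and 138 CPM in Y541S. Of the 9 N libraries 6 were above the highest ML library, Y541S ML 2, and WT N 3 was the lowest of the N libraries. Over the genotypes the log2 fold change was 0.98 ± 0.18, a 1.98-fold higher level (adjusted p = 0.00139, edgeR), and 1.08 ± 0.16 without WT N 3 (adjusted p = 0.000134). It was called in D542G (1.62 ± 0.32, adjusted p = 0.00695), whereas WT (0.81 ± 0.32, adjusted p = 0.163) and Y541S (0.52 ± 0.32, adjusted p = 0.360) were not. The WT difference was 1.10 ± 0.28 without WT N 3 (adjusted p = 0.0185).

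Prlr (ENSMUSG00000005268, chr15:10177238-10349180, + strand) was the most strongly expressed of the 5 in ML and fell steeply in N. ML levels were 806, 1265 and 1879 CPM in WT, 1284, 1556 and 1206 CPM in D542G, and 1499.8, 367 and 704 CPM in Y541S. N levels were 91.7, 72.3 and 1216 CPM in WT, 151, 144 and 94.2 CPM in D542G, and 76.2, 139 and 55.4 CPM in Y541S. All N libraries but WT N 3 were below the lowest ML library, and N was lower than ML in 9 of 9 pairs of equal number. Over the genotypes Prlr fell by 2.71 ± 0.50 on the log2 scale, a 6.56-fold lower level (adjusted p = 0.00128, edgeR). Without WT N 3 it fell by 3.54 ± 0.32, an 11.7-fold lower level (adjusted p = 3.27e-06). Prlr shares 23801 bases, 203 of them exonic, with the gene Gm21973 on the same strand, which itself had at most 282 counts in a library. How the counting treated reads there is not given in the sources used here.

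Within the genotypes, Prlr had log2 fold changes of −3.38 ± 0.90 in D542G (adjusted p = 0.0301, edgeR) and −3.25 ± 0.89 in Y541S (adjusted p = 0.0401), both called, and −1.52 ± 0.83 in WT (adjusted p = 0.310). The D542G call was lost when any of D542G ML 1, ML 2, N 1, N 2 or N 3 was left out (adjusted p up to 0.128), at fold changes of −3.50 to −3.17. The Y541S call was lost with 12 of the 18 single libraries left out, namely WT ML 2, the 6 D542G libraries, Y541S ML 1 and ML 3 and the 3 Y541S N libraries, at −3.70 to −2.57. All genotypes were called without WT N 3, at −4.01 ± 0.61 in WT (adjusted p = 0.00105), −3.38 ± 0.50 in D542G (adjusted p = 0.000801) and −3.25 ± 0.50 in Y541S (adjusted p = 0.00107).

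Ghr (ENSMUSG00000055737, chr15:3317760-3583492, − strand) was higher in N than in ML, and within N it was highest in D542G. ML levels were 40.6, 71.7 and 91.0 CPM in WT, 94.7, 101 and 83.4 CPM in D542G, and 49.6, 106 and 67.9 CPM in Y541S. N levels were 115, 117 and 61.3 CPM in WT, 471, 660.1 and 695 CPM in D542G, and 186, 177 and 138 CPM in Y541S. The N groups did not overlap, with D542G highest and WT lowest, and all N libraries but WT N 3 were above every ML library. Over the genotypes Ghr was 2.76-fold higher in N (1.47 ± 0.19 log2, adjusted p = 9.63e-05, edgeR), and 2.92-fold without WT N 3 (1.55 ± 0.18, adjusted p = 2.49e-05). In D542G it rose by 2.71 ± 0.35, or 6.53-fold (adjusted p = 0.000468), and in Y541S by 1.16 ± 0.33 (adjusted p = 0.0486), with 0.53 ± 0.33 in WT (adjusted p = 0.370), or 0.77 ± 0.33 without WT N 3 (adjusted p = 0.127). The Y541S call was lost with 12 of the 18 single libraries left out (WT ML 2, WT N 1, the 6 D542G libraries, Y541S ML 1 and ML 3, and Y541S N 1 and N 2), with fold changes of 0.94 to 1.52 over all 18, and also when N and ML libraries of equal number were fitted as pairs (adjusted p = 0.0839) or without the filter on low counts.

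In the N gate, Ghr was 6.23-fold higher in D542G than in WT (2.64 ± 0.35 log2, adjusted p = 0.00231, edgeR), and 2.39 ± 0.36 higher without WT N 3 (adjusted p = 0.00309). Against Y541S it was 3.64-fold higher (1.86 ± 0.34 log2, adjusted p = 0.0130); that call was lost without D542G N 2, D542G N 3 or Y541S N 2 (adjusted p = 0.0512, 0.0684 and 0.0558). Y541S against WT gave 0.77 ± 0.33 (adjusted p = 0.297), and 0.53 ± 0.34 without WT N 3 (adjusted p = 0.431). The gate effect was larger in D542G than in WT by 2.18 ± 0.47 on the log2 scale, which was not called (adjusted p = 0.117), and by 1.93 ± 0.45 without WT N 3 (adjusted p = 0.0674). Markers of mammary cell types differed between the N groups too. Summed luminal genes stood at 5779 to 7198 CPM in D542G N, 2374 to 5637 CPM in Y541S N and 2123, 2426 and 18184 CPM in WT N, and the hormone-sensing luminal sums are given above with Esr1. Summed basal genes stood at 14739 to 16579 CPM in D542G N, 21373 to 37219 CPM in Y541S N and 31023, 39729 and 6139 CPM in WT N. Luminal progenitor sums were 147 to 524 CPM in D542G N, 733 to 2602 CPM in Y541S N and 761 to 1498 CPM in WT N. D542G N was thus above Y541S N in the luminal and hormone-sensing sums. It was below Y541S N in the basal and progenitor sums, and none of these sums overlapped. Foxa1 weighed heavily in the hormone-sensing sum, its group mean being 764 CPM for D542G N against 88.1 CPM for Y541S N. Other markers of that list went both ways by group mean. Wnt4 and Areg were higher for D542G N, whereas Gata3 (120 against 163 CPM), Cited1 and Tnfsf11 were lower. Adipocytes, which express Ghr strongly, are a cell type a mammary sort could carry over: their summed markers (8 of 8 detected) stood at 97.3, 185 and 325 CPM for D542G N, 264 to 466 CPM in WT N and 279.6 to 611 CPM in Y541S N. Summed fibroblast genes (8 of 8 detected) stood at 393 to 508 CPM in D542G N, 351 to 496 CPM in Y541S N and 122 to 220 CPM in WT N. For fibroblast genes D542G N was thus above WT N without overlap, and it overlapped Y541S N. The part of these marker groups in the Ghr values was not tested.

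**Figure D3:**
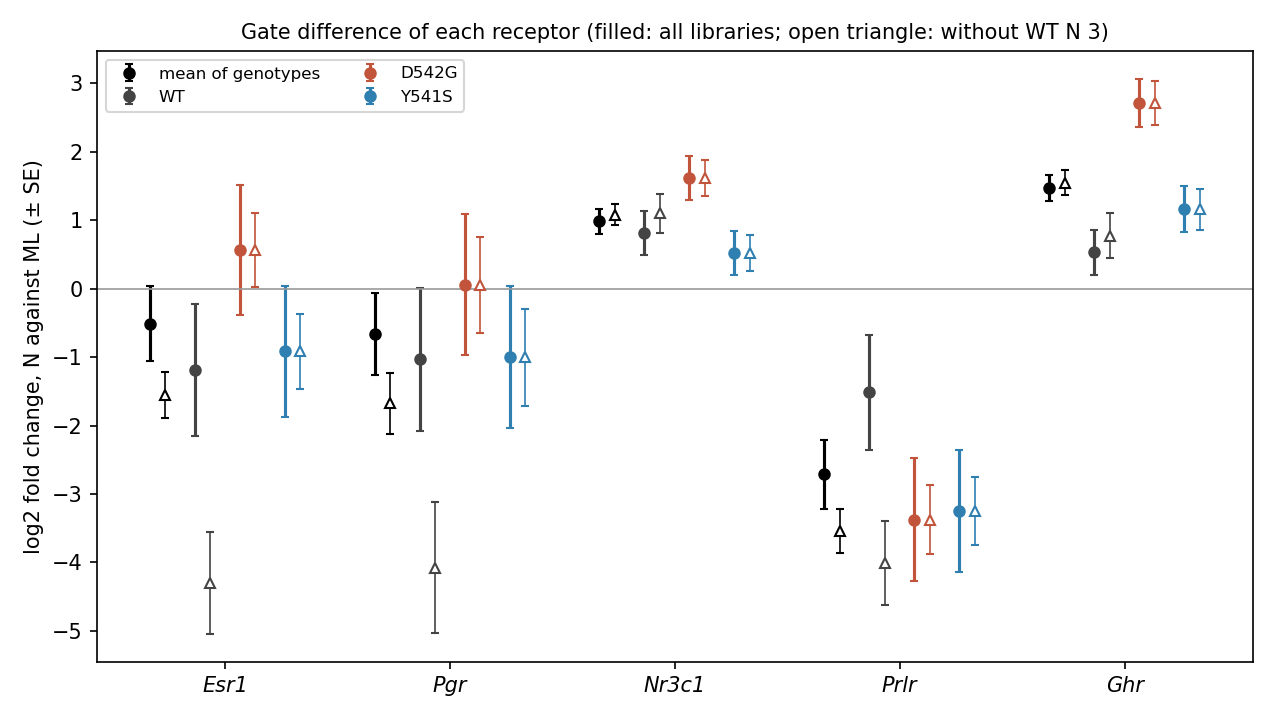
Log2 fold change of N against ML (± SE) for the 5 receptors, over the genotypes (black) and in each genotype; filled circles use all 18 libraries, open triangles leave out WT N 3. Prlr lies below 0 and Nr3c1 and Ghr above 0 in every genotype, while Esr1 and Pgr in WT drop to −4.30 and −4.08 without WT N 3.

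Counted over the receptors, 3 of 5 were called between the gates over the genotypes (Nr3c1 and Ghr higher, Prlr lower), where 27.4% of the 18298 genes tested were called. They were 0 of 5 in WT (3.53% of genes), 3 of 5 in D542G (9.2%: Nr3c1, Prlr and Ghr) and 2 of 5 in Y541S (6.95%: Prlr and Ghr). In WT, edgeR gave 1 of the 5, Nr3c1, an unadjusted p under 0.05, DESeq2 called 0 (11.3% of genes) and limma-voom 4 (28.2% of genes). Without WT N 3 all 5 were called over the genotypes, beside 33.3% of the 19137 genes then tested, and 4 in WT, beside 15.5%. The comparisons of a mutant with WT share the WT libraries.

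Between genotypes in the ML gate, 0 of 5 receptors and 0 of 18298 genes (0%) were called for either mutant by edgeR. For D542G 1129 genes and for Y541S 1012 genes had an unadjusted p under 0.05, none of them a receptor. DESeq2 called 110 and 51 genes there and limma-voom 93 and 3, again none of the receptors. The 95% intervals were wide: for D542G against WT they ran from −2.56 to 1.58 for Esr1, from −1.74 to 1.81 for Prlr and from −0.26 to 1.17 for Ghr on the log2 scale. In the N gate, Ghr alone was called for D542G against WT (1 of 5, 2.43% of genes) and against Y541S (1 of 5, 1.43%). For Y541S against WT 0 of 5 were called (1.14%), with 2 of 5, Prlr and Ghr, at an unadjusted p under 0.05. There DESeq2 called 1, Prlr, with 5.85% of genes. By limma-voom 1 was called, Esr1, with 10.6% of genes, at 2.497 (adjusted p = 0.0370), against −0.54 by edgeR. For the difference of gate effects, 0 of 5 were called for D542G (0.109% of genes; 1, Ghr, at an unadjusted p under 0.05, 1 by DESeq2 with 2.25% of genes, 3 by limma-voom with 6.85%) and 0 of 5 for Y541S (0%; 0 at an unadjusted p under 0.05 and 0 by either other tool).

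Levels of different genes were compared per kb of annotated exon. In ML, Prlr stood at 76.5 ± 30.7 CPM per kb (SD, n = 9), Esr1 at 14.1 ± 8.59, Nr3c1 at 10.03 ± 3.49, Ghr at 8.67 ± 2.52 and Pgr at 2.15 ± 1.16. In N, Ghr stood at 32.2 ± 27.4, Nr3c1 at 19.7 ± 4.85, Prlr at 14.8 ± 24.3, Esr1 at 11.1 ± 9.14 and Pgr at 1.55 ± 1.25. Prlr was first in ML and Pgr last in both gates. The rest of the order rests on the length used, the first place in N included: by the authors' RPKM, which divides by nearly the whole gene span for 4 of the receptors and by 73.6% of it for Nr3c1, mean ML levels were 6.26 for Prlr, 0.875 for Nr3c1, 0.448 for Esr1, 0.268 for Ghr and 0.242 for Pgr, and mean N levels 1.64 for Nr3c1, 1.23 for Prlr, 0.977 for Ghr, 0.352 for Esr1 and 0.175 for Pgr. The N order also differs between groups: per kb of exon Ghr stood at 67.2 in D542G N but at 10.8 in WT N, where Nr3c1 stood at 17.6 and Prlr, mostly through WT N 3, at 30.0 CPM per kb. The ratio of Ghr to Prlr per kb of exon turned over between the gates: it was 0.0560 to 0.491 in the 9 ML libraries and 0.0854 in WT N 3, against 2.13 to 12.5 in the other N libraries, with 5.28, 7.76 and 12.5 in D542G N.

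Ordered by group mean, Esr1 ran from D542G N (267 ± 40.6 CPM) through WT ML, D542G ML, Y541S ML and WT N to Y541S N (76.5 ± 32.0), and the ranges of all neighbours in that order overlapped. Neighbours overlapped throughout for Pgr and Prlr as well, for Prlr between ML and N only through WT N 3. Nr3c1 had 1 gap, between D542G N (184 ± 16.7 CPM) and Y541S N (135 ± 10.9). D542G N (165 to 197 CPM) did overlap WT N, which came after Y541S N by mean and reached 176 CPM. Ghr had 2, from D542G N (608 ± 121 CPM) to Y541S N (167 ± 25.7) and from there to WT N (97.7 ± 31.5).

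Genes with profiles most like each receptor were named from the Pearson correlation of log2(CPM + 1) over the 18 libraries, as a description; the libraries share gates, genotypes and the 1 outlying WT N library. Nearest to Esr1 were Foxa1 (r = 0.938), a pioneer factor for the estrogen receptor, Rcbtb2 (0.934) and Cldn10 (0.922). Nearest to Pgr were again Foxa1 (0.957) and Rcbtb2 (0.949), then Tgm2 (0.947). Foxa1 had a mean of 764 CPM in D542G N and 88.1 CPM in Y541S N, and in WT N it stood at 7.88, 14.7 and 573 CPM, with WT N 3 again high. The nearest to Nr3c1 were Rassf1 (0.954), Rnf19a (0.948) and Arhgef28 (0.943), and to Prlr Cystm1 (0.986), H2-Q2 (0.980) and Slc38a1 (0.978). For Ghr they were the zinc transporter gene Slc39a4 (0.934), Hadha (0.918), an enzyme of mitochondrial fatty acid oxidation, and Tns3 (0.915). Slc39a4 averaged 184 CPM in D542G N, against 43.6 CPM in Y541S N and 15.3 CPM in WT N, the same order as Ghr.

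Genes around the receptors were counted in N against ML over the genotypes, beside 27.4% of all genes called (13.8% higher, 13.6% lower) and a median log2 fold change of −0.03 over all genes. Without WT N 3, the called genes of the 7 lists were called too, 6 genes more were called (Nr3c2, Foxa1, Akr1c18, Sult1a1, Socs7 and Stat5a, named after their values were seen), and the fold of 2 genes moved by over 1.5 times: Foxa1 from −0.88 to −2.26 and Cited1 from −2.63 to −3.80 on the log2 scale. Of 14 other hormone receptors 12 were tested, of which 4 rose and 1 fell (median 0.46). The oxytocin receptor gene Oxtr, which is also in the basal marker list, rose by 3.33 ± 0.43 (adjusted p = 8.92e-05, edgeR), the vitamin D receptor gene Vdr by 1.67 ± 0.31, the membrane progesterone-binding gene Pgrmc2 by 0.75 and the estrogen receptor beta gene Esr2 by 1.57 ± 0.48 (adjusted p = 0.0262), while Rara fell by 0.29. The Oxtr rise was uneven between genotypes: group means in N were 94.4 CPM in WT, 76.0 CPM in D542G and 1205 CPM in Y541S. In ML they were 16.1 to 24.7 CPM. Esr2 was near the floor, with group means of 0.117 to 0.234 CPM in ML and 0.336 to 0.869 CPM in N. Of the 4 rises 3 were called under all 24 alternatives, and the fall of Rara was not. The mineralocorticoid receptor gene Nr3c2 (−0.90 ± 0.33, adjusted p = 0.0560, edgeR) was not called. Nr3c2 was called without WT N 3, at −1.44 (adjusted p = 2.28e-05).

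Of 17 chaperones and coregulators of steroid receptors, 2 rose and 1 fell (median −0.12). The luminal factor gene Gata3 fell by 1.26 ± 0.22 (adjusted p = 0.00102, edgeR), and the corepressor gene Nrip1 and the Hsp90 co-chaperone gene Fkbp4 rose by 0.46 and 0.26. The Nrip1 rise was called in D542G (1.22 ± 0.18, adjusted p = 0.00112), with 0.07 in WT and 0.09 in Y541S (adjusted p = 0.851 and 0.816); the larger gate effect in D542G than in WT was not called (adjusted p = 0.118). Fitted as pairs, 1 gene of this list was higher and 2 lower. Of 13 hormone and steroid enzyme genes 6 were tested, of which Srd5a1, a steroid 5-alpha-reductase, rose by 1.90 ± 0.44 (adjusted p = 0.00540) and Hsd17b4 fell by 0.63 (median of the 6 −0.23). Prl and the aromatase gene Cyp19a1 were listed at 0 in every library. So were Txnip of the glucocorticoid list and Csn3 of the luminal progenitor markers. Whether such a 0 reflects no expression or the counting was not tested.

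**Figure D4:**
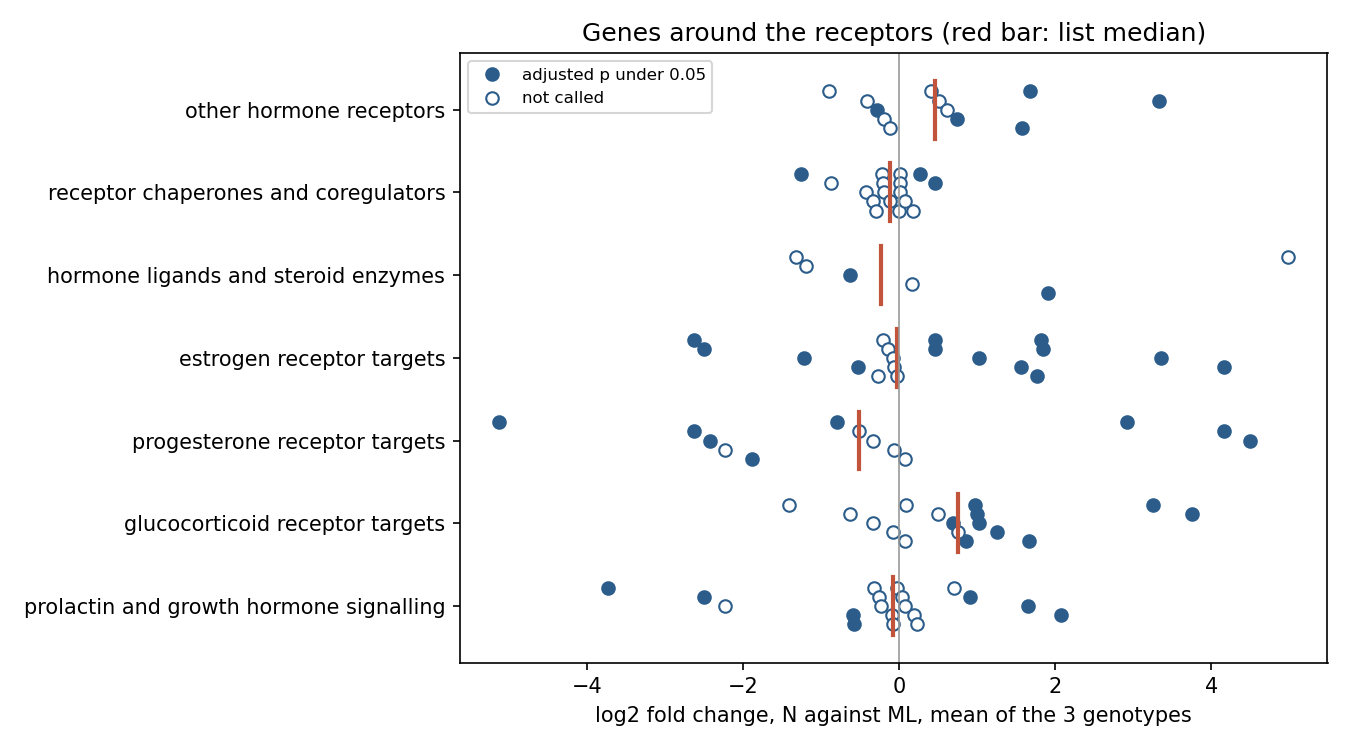
Log2 fold change of N against ML over the genotypes for the tested genes of the 7 lists, with called genes filled, genes not called open and a red bar at the list median. Of the glucocorticoid receptor targets 9 were called and higher and 0 lower, while called genes of the estrogen and progesterone receptor targets lie on both sides of 0.

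Of 20 estrogen receptor targets 19 were tested, of which 9 rose and 4 fell (median −0.03). The chemokine gene Cxcl12 rose by 4.16 ± 0.41 (adjusted p = 1.01e-05, edgeR), Igfbp4 by 3.36 ± 0.37, Myc by 1.82 ± 0.19 and Greb1 by 1.84 ± 0.27. The cyclin gene Ccnd1 fell by 2.50 ± 0.23 (adjusted p = 5.56e-06), and Areg, the growth factor amphiregulin, was not called (−0.06). Greb1 stood at 2.64, 1.99 and 6.86 CPM in WT N, 6.36 to 10.5 CPM across D542G N and 9.19 to 15.8 CPM in Y541S N, against 1.44 to 3.22 CPM in the ML libraries. Y541S N thus did not overlap WT N, though the difference was called only without WT N 3 (1.69 ± 0.47, adjusted p = 0.105, and 2.41, adjusted p = 0.0142). In the N gate, where 1.61% of all genes were called higher in D542G than in WT, 3 of the 19 rose in that comparison: Nrip1 by 1.40 ± 0.18 (adjusted p = 0.00203), Rerg by 3.10 ± 0.44 (adjusted p = 0.00350) and Myb by 3.73 ± 0.80 (adjusted p = 0.0258). Without WT N 3 these 3 were called too, with Greb1 at 1.82 (adjusted p = 0.0240), and Myc was lower by −1.08 (adjusted p = 0.00989). Rerg was also the 1 gene of this list called for a larger gate effect in D542G than in WT (4.03 ± 0.59, adjusted p = 0.0174).

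Of 15 progesterone receptor targets 13 were tested, of which 3 rose and 5 fell (median −0.51). Follistatin (Fst) rose by 4.50 ± 0.53 (adjusted p = 3.85e-05, edgeR) and Cxcl12, shared with the estrogen list, as above. The cytokine gene Lif fell by 1.89 ± 0.26 (adjusted p = 0.000130), the Wnt enhancer gene Rspo1 by 2.43 ± 0.36 and Wnt4 by 0.79 ± 0.22 (adjusted p = 0.0176). Tnfsf11 (RANKL), a main paracrine signal of the progesterone receptor in this tissue, was not called (−2.23 ± 1.29, adjusted p = 0.217).

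Of 18 glucocorticoid receptor targets 17 were tested, of which 9 rose and 0 fell (median 0.75); DESeq2 and the fit with paired libraries each called 10 higher and 1 lower. The metallothionein genes Mt1 and Mt2 rose by 3.26 ± 0.34 and 3.76 ± 0.44 (adjusted p = 1.50e-05 and 3.68e-05, edgeR), the kinase gene Sgk1 by 1.0 ± 0.16 and Errfi1 by 0.97 ± 0.16. The classical targets Fkbp5 (−0.34 ± 0.39, adjusted p = 0.559) and Tsc22d3 (−0.64 ± 0.35, adjusted p = 0.199) were not called. In the N gate, Sgk1 rose in D542G against WT (1.56 ± 0.28, adjusted p = 0.0113) and against Y541S (1.52 ± 0.28, adjusted p = 0.0146), from 706 to 1549 CPM in WT N and 867 to 1395 CPM in Y541S N to 2828 to 3801 CPM in D542G N. Errfi1 rose in D542G against WT as well (1.11 ± 0.28, adjusted p = 0.0498), a call lost without WT N 3 (adjusted p = 0.0620). Without that library Fkbp5 was lower in D542G N (−2.44, adjusted p = 0.0280) and Y541S N (−2.79, adjusted p = 0.0289) than in WT N. With it, these were −1.96 and −2.31 (adjusted p = 0.153 and 0.143). Of the 17 genes, 2 were called higher and 0 lower in D542G N than in WT N with all libraries, beside 2.43% of all genes called. Without WT N 3 the balance turned, with 1 higher and 4 lower, beside 7.01% of all genes called.

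Of 19 genes of prolactin and growth hormone signalling, 3 rose and 4 fell (median −0.08). The cytokine-signalling inhibitor genes Socs1 and Cish rose by 2.07 ± 0.17 and 1.65 ± 0.21 (adjusted p = 2.81e-06 and 7.89e-05, edgeR), and Socs3 by 0.91. The luminal progenitor and alveolar factor gene Elf5, a target of prolactin signalling, fell by 3.74 ± 0.57 (adjusted p = 0.000299), with Ccnd1 as above and Stat5b by 0.59. Jak2 (0.19), Stat5a (−0.32) and Socs2 (−0.08) were not called. Without WT N 3 Stat5a was called at −0.63 (adjusted p = 0.0117).

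Socs2, the feedback inhibitor of growth hormone signalling, was lower in WT than in mutant libraries of either gate. Its levels were 4.30, 3.05 and 13.3 CPM in WT N, 38.5, 56.9 and 73.3 CPM in D542G N and 29.4, 54.2 and 17.6 CPM in Y541S N. WT N was thus below both mutant groups in every library. D542G against WT was 3.03 ± 0.55 (adjusted p = 0.0113, edgeR), the only call among these 19 genes in that comparison, and Y541S against WT was 2.30 ± 0.53 (adjusted p = 0.0512), or 3.20 without WT N 3 (adjusted p = 0.00578). In ML, Socs2 stood at 9.67 to 17.1 CPM in WT, 39.7 to 59.2 CPM in D542G and 17.5 to 33.9 CPM in Y541S, so WT was below both mutants there too, although the gene was not called. Cish stood at 100.4 to 136 CPM in D542G N, 37.3 to 68.6 CPM in WT N and 29.4 to 78.0 CPM in Y541S N. Of the other inhibitors Socs1 was higher in Y541S N than in WT N (2.13 ± 0.30, adjusted p = 0.00480) and lower in D542G N than in Y541S N (−1.70 ± 0.30, adjusted p = 0.0102).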

How the data were processed

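Sorted cells gave RNA by an RNeasy Micro Plus kit and libraries by Nextera XT, per the labels' protocols. The deposited tables hold a read count, a width and an RPKM per gene. The authors' RPKM divides by that width, which spans introns for most genes, and was used in no test. The build was GRCm38, per the submitters' processing notes; which aligner and counter were used, and whether by strand, is not given in the sources used here. Of the identifiers 99.7% matched GENCODE M21.

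Counts were fitted in R 4.3.3 with edgeR 4.0.16 (quasi-likelihood test, 6 group means, 12 residual degrees of freedom) after filterByExpr (minimum count 10, minimum total 15) and TMM scaling (factors 0.850 to 1.10). P-values were adjusted over 18298 genes by the Benjamini-Hochberg method within each of 11 comparisons. The scripts were tested on simulated data. Alternatives were other size factors, no filter, DESeq2 1.42.0, limma 3.58.1 (voom with quality weights), pairing by replicate number, and libraries left out. Libraries of a group differed beyond sampling noise (lowest chi-square divided by its degrees of freedom 46.1), and p-values measure the spread between libraries. N and ML libraries of equal number within a genotype deviated together in 9 of 9 pairs (r = 0.177 to 0.507). Unequal numbers gave r = −0.449 to 0.178, but deviations from a mean of 3 libraries sum to 0, which lowers r there. Equal numbers were taken as pairs in the paired alternative and in counts of pairs, not in the main test. This pairing comes from the data, as the labels do not say so.

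The receptors and gene lists were chosen with earlier results of these data known. For each receptor the 3 genes of highest correlation (mean CPM of at least 8, predicted genes passed over) were named. From each list up to 4 called genes of smallest p and 12 genes with a direct link to a receptor were eligible. Further list genes, the libraries set beside them, and the genotype comparisons of list genes were chosen after their values were seen. Some genes of the lists are counted but not reported here by name.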

Additional observations from a re-analysis of the deposited data

How the results depend on the processing

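The gate calls of Nr3c1, Prlr and Ghr over the genotypes, and the Ghr call of D542G N against WT N, held under all 24 alternatives tried for each. Of 1320 receptor fold changes under alternatives 1206 kept direction and side of the threshold, 34 lost a call, 33 gained one in the same direction and 47 changed sign. Those that changed sign include Esr1 in N, Y541S against WT, which was then called by limma-voom and without WT N 3 and Y541S N 3. The cause was not tested. Gate over genotypes: limma-voom and leaving out WT N 3 with Y541S N 3 called 5 receptors each, the latter with Esr1 at −1.47 and Pgr at −1.56, limma-voom with −1.24 and −1.82; single libraries left out gave 3 to 5 calls, Esr1 from −1.55 to −0.24 and Pgr from −1.67 to −0.42. WT gate: 4 calls under each of these settings, 0 to 4 with single libraries left out. Y541S gate: 1 call without the filter, 0 to 2 with single libraries left out. N, D542G against WT: 3 calls under each of these settings, 1 to 3 with single libraries left out. N, Y541S against WT: 1 call under these settings and DESeq2. N, D542G against Y541S: 0 to 1 with single libraries left out. D542G gate by genotype: 1 call by DESeq2, 3 by limma-voom, 2 without both libraries, 0 to 1 with single libraries left out. Y541S gate by genotype: 1 without both libraries. Of all genes, limma-voom called 42% in the gate over genotypes, 28.2% in the WT gate and 22.4% for N, D542G against WT. With all libraries edgeR called 27.4%, 3.53% and 2.43% there. Without WT N 3 alone it called 33.3%, 15.5% and 7.01%. The shares of all genes called without both libraries are not given here.

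Fold changes that changed sign, none of them called with all libraries, were as follows. By limma-voom: Pgr in the D542G gate −0.091, Ghr in ML Y541S −0.0254, Prlr in N D542G 0.46, Esr1, Pgr and Nr3c1 in N Y541S 2.497, 3.69 and −0.18, and Prlr in the gate effects of D542G and Y541S 0.34 and 0.60. Without both libraries: Prlr in N D542G 0.66, Esr1, Pgr, Nr3c1 and Prlr in N Y541S 2.81, 3.08, −0.30 and 0.39, and Prlr in the 2 gate effects 0.63 and 1.01. With single libraries left out: Pgr in the D542G gate −0.33 to 0.31; in ML D542G, Esr1 −0.83 to 0.25 and Prlr −0.22 to 0.39; in ML Y541S, Pgr −0.78 to 0.38, Nr3c1 −0.0893 to 0.53 and Ghr −0.21 to 0.41; Prlr in N D542G −2.34 to 0.66; in N Y541S, Esr1 −1.08 to 2.57, Pgr −0.86 to 2.75, Nr3c1 −0.29 to 0.24 and Prlr −2.87 to 0.14; Prlr in the D542G gate effect −2.36 to 0.63; in the Y541S gate effect, Esr1 −0.46 to 3.39, Pgr −0.67 to 3.08, Nr3c1 −0.58 to 0.10 and Prlr −2.23 to 0.76.

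With the replicate block of genotype and number (6 residual degrees of freedom), the Y541S gate had 1 receptor called in place of 2, and Esr1 and Pgr over the genotypes were −0.91 and −1.18 (adjusted p = 0.0767 and 0.0766). A block of number alone turned Esr1 and Pgr in N Y541S to 0.11 and 0.0386; equal numbers of different genotypes did not deviate together (r = −0.522 to 0.313).

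Over the alternatives for each comparison, the number of genes called ran from 4105 to 7690 for the gate over the genotypes (5021 with all libraries), 157 to 5167 in WT (646), 702 to 5862 in D542G (1684) and 571 to 2595 in Y541S (1272); from 0 to 110 for D542G and 0 to 51 for Y541S in ML (0 each); from 92 to 4096 for D542G against WT (444), 48 to 1931 for Y541S against WT (208) and 56 to 1221 for D542G against Y541S in N (261); and from 3 to 1254 and 0 to 794 for the gate effects of D542G and Y541S (20 and 0). The receptor level that rests on the fewest counts was Pgr in WT N 1 (0.201 CPM). Of the gene lists in the gate over the genotypes, the same 9 estrogen receptor targets were called higher under all 24 alternatives; limma-voom called 6 other hormone receptors higher and 3 lower (4 and 1 by edgeR) and 4 coregulators lower (1), and the paired fit 6 receptors higher and 2 lower, and 1 coregulator higher and 2 lower (2 and 1).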
